A study of Homo sapiens with 6 samples.

Results

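Insulin and the insulin-like growth factors (IGFs) act through a small set of receptors, docking proteins and secreted binding proteins, and 10 genes of this set were described across a human podocyte experiment: the receptors INSR, IGF1R and IGF2R, the insulin receptor substrates IRS1 and IRS2, and the IGF-binding proteins IGFBP3, IGFBP4, IGFBP5, IGFBP6 and IGFBP7. They were picked by symbol, with earlier results of these data known. Each of the 10 symbols matched 1 of the 38648 genes listed. Podocytes are the epithelial cells that cover the filtering capillaries of the kidney. The libraries came from the cell line HPC, labelled as human podocyte and wild type. One group received a lentivirus carrying PRDM16, a zinc finger transcription factor best known from brown fat, and the other a negative control (NC) lentivirus. Every culture of either group was in high glucose and in RPMI-1640 medium with 10% fetal bovine serum, and the titles give 24 h. Each group had 3 libraries. The labels leave out the glucose concentration, the promoter behind PRDM16 and whether the line is 1 clone, and do not name separate cultures behind the libraries. A p-value here thus reflects library-to-library spread alone, possibly technical. A normal-glucose group is not part of these data as used here.

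The receptors INSR and IGF1R are tyrosine kinases that, once a ligand binds, phosphorylate IRS proteins, which recruit PI3-kinase and so switch on AKT. IGF2R, also the mannose 6-phosphate receptor, has no kinase and carries IGF2 to the lysosome. IGFBPs bind IGFs outside the cell and set how much reaches the receptor, and in the glomerulus insulin acts on podocytes directly, where it moves glucose transporters and remodels actin.

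Total gene counts were between 20147135 and 41280350 per library. PRDM16 itself had 11, 18 and 24 counts in PRDM16 libraries 1, 2 and 3, against 0, 0 and 0 counts in NC libraries 1, 2 and 3, a mean of 0.597 ± 0.0422 CPM (SD, n = 3) with PRDM16. That is a low level, and whether the counted gene model covers the introduced sequence is not stated. PRDM16 passed the edgeR quasi-likelihood test over all genes tested (adjusted p = 0.000771), and a two-sided exact permutation test gave p = 0.1, the smallest that 3 against 3 libraries allow. Of 12 podocyte markers, 5 (PODXL, SYNPO, CD2AP, PLA2R1 and NES) were at or above 1 CPM (counts scaled to a common library size) in every library and 7, among them NPHS1 and WT1, were below 1 CPM in every library. Of 4 parietal epithelial markers, 3 (PAX8, PAX2 and CLDN1) were at or above 1 CPM in every library. That list summed to 726 to 851 CPM in PRDM16 libraries and 831 to 885 CPM in NC libraries. Of 5 fibroblast markers, COL1A1 and LUM were at or above 1 CPM in every library, and COL1A2, DCN and PDGFRA were below it in every library. The fibroblast list summed to 285 to 343 CPM in PRDM16 libraries and 316 to 350 CPM in NC libraries. Of 4 leukocyte markers CD68 alone was at or above 1 CPM in every library while PTPRC and CD3E were below it in every library, and the list summed to 173 to 179.8 CPM in PRDM16 libraries and 142 to 162 CPM in NC libraries. Over the 12 podocyte markers the summed level was 282.7 to 319.9 CPM in PRDM16 libraries and 333 to 432 CPM in NC libraries. The part of any of these lists in the results was not tested.

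The stretches just before the annotated starts of 5 of the genes are shown because these genes carry the contrasts described below: INSR and IGF1R, sister receptors that differed widely in level, and IGF2R, IGFBP4 and IGFBP6, the tested members whose groups did not overlap in CPM. Each line holds the 250 bases before the start, 5′ to 3′ in the direction of the gene, from RefSeq on GRCh38.p14, for INSR at chr19:7294415-7294664 (minus strand), IGF1R at chr15:98648289-98648538 (plus strand), IGF2R at chr6:159968832-159969081 (plus strand), IGFBP4 at chr17:40443200-40443449 (plus strand) and IGFBP6 at chr12:53097417-53097666 (plus strand). Capitals mark 3 motifs searched on both strands, and neighbouring matches can share bases, so that 1 run of capitals can hold several matches. The core of the GC box, to which factors of the Sp family bind, was searched as GGGCGG. The E-box of basic helix-loop-helix factors was searched as CACGTG. The TATA box, which places the start in some promoters, was searched as TATAAA.
INSR: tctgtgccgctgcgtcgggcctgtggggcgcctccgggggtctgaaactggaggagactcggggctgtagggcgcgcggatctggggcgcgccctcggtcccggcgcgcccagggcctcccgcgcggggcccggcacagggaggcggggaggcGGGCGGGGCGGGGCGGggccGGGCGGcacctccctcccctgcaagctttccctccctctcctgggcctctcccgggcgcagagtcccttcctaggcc
IGF1R: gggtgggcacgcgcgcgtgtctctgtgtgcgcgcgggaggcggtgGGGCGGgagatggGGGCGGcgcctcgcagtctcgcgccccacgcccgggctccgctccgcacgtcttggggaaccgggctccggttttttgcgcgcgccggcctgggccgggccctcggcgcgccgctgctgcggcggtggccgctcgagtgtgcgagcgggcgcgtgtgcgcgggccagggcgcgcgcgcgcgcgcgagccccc
IGF2R: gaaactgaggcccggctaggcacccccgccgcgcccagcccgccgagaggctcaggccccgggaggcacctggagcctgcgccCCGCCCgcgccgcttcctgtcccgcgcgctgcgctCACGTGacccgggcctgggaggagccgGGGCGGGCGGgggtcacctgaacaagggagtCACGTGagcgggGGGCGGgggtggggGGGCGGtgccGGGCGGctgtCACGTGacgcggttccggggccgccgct
IGFBP4: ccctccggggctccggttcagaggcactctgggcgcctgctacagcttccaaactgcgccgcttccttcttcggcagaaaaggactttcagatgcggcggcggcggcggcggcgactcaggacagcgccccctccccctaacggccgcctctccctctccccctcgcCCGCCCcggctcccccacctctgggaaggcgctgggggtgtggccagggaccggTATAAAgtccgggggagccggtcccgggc
IGFBP6: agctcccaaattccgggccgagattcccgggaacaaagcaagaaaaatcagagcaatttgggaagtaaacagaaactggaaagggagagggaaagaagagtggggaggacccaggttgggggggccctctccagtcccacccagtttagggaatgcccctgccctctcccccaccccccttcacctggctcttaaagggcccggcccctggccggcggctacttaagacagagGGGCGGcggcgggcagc
RefSeq promoters were found for 9 of the 10 genes, IGFBP7 having no entry, and in all 9 the start was the one in the deposited tables. Over windows of 300 bases, 50 of them after the start, the GC content of the 9 ran between 59.0% (IGFBP5) and 79.7% (IGF1R), against a median of 58.7% over all 35116 promoters. The GC box core was in 8 of the 9, all but IGFBP5, against 45.0% of all promoters. IGF2R held 6 GC box cores and 3 E-boxes, which started 132, 74 and 28 bases before the start; 3 or more CACGTG were found in 33 of all promoters (0.0940%), and at least 1 in 7.26%. TATAAA was in IGFBP4 alone among the 9, starting 29 bases before the start, against 11.5% of all promoters. INSR, the least abundant gene of the set, held 4 GC box cores and IGF1R 2. A match describes letters only and shows neither a bound site nor a cause.

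Levels of different genes were compared in the deposited TPM (transcript abundance per gene, counts scaled by gene length), and coordinates are those of the deposited tables on hg38. The 4 most abundant genes of the set were binding proteins, IGF2R stood above the fifth, IGFBP5, and INSR was lowest. IGFBP4, an inhibitor of IGF action that a secreted protease can cleave, and lies on chromosome 17 at 40443450 to 40457725, had 788, 701 and 789.9 TPM in PRDM16 libraries 1, 2 and 3, against 728, 667 and 671 TPM in NC libraries 1, 2 and 3, a mean higher than that of 98.9% of all genes tested. IGFBP7, a secreted relative of the family known for weak IGF binding, lies on chromosome 4 at 57030773 to 57110385 and came next with 562, 582 and 565 TPM in PRDM16 libraries 1, 2 and 3, against 607, 522 and 548 TPM in NC libraries 1, 2 and 3. IGFBP6, which prefers IGF2 over IGF1, and lies on chromosome 12 at 53097667 to 53102340, had 244, 239 and 242 TPM in PRDM16 libraries 1, 2 and 3, against 209.8, 209.6 and 224 TPM in NC libraries 1, 2 and 3. IGFBP3, the main IGF carrier of blood, and lies on chromosome 7 at 45912245 to 45921272, had 190.1, 231 and 209 TPM in PRDM16 libraries 1, 2 and 3, against 207, 205 and 233 TPM in NC libraries 1, 2 and 3. IGFBP6 and IGFBP3 overlapped and stood in that order in 5 of 6 libraries.

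IGF2R, the lysosomal scavenger receptor, and lies on chromosome 6 at 159969082 to 160111504, had 84.1, 90.1 and 99.5 TPM in PRDM16 libraries 1, 2 and 3, against 106, 111 and 111 TPM in NC libraries 1, 2 and 3, and was the most abundant of the 3 receptors. IGFBP5, a binding protein that also attaches to matrix, and lies on chromosome 2 at 216672105 to 216695549, had 42.8, 66.0 and 65.3 TPM in PRDM16 libraries 1, 2 and 3, against 59.0, 74.6 and 86.9 TPM in NC libraries 1, 2 and 3. Their ranges overlapped slightly over the libraries, although IGF2R was above IGFBP5 in 6 of 6. The docking proteins were lower still. IRS2, whose gene is a known FOXO target, and lies on chromosome 13 at 109752695 to 109786583, had 18.3, 22.6 and 22.7 TPM in PRDM16 libraries 1, 2 and 3, against 21.8, 26.7 and 25.7 TPM in NC libraries 1, 2 and 3. IRS1, on chromosome 2 at 226731312 to 226799820, had 11.1, 14.2 and 15.2 TPM in PRDM16 libraries 1, 2 and 3, against 13.8, 17.1 and 16.3 TPM in NC libraries 1, 2 and 3. IGF1R, the signalling receptor for both IGFs, and lies on chromosome 15 at 98648539 to 98964530, had 10.7, 11.4 and 13.9 TPM in PRDM16 libraries 1, 2 and 3, against 13.4, 14.7 and 15.4 TPM in NC libraries 1, 2 and 3. IRS2 was above IRS1 with no overlap, whereas IRS1 and IGF1R overlapped in range, with IRS1 the higher of the pair in 6 of 6 libraries.

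**Figure D1:**
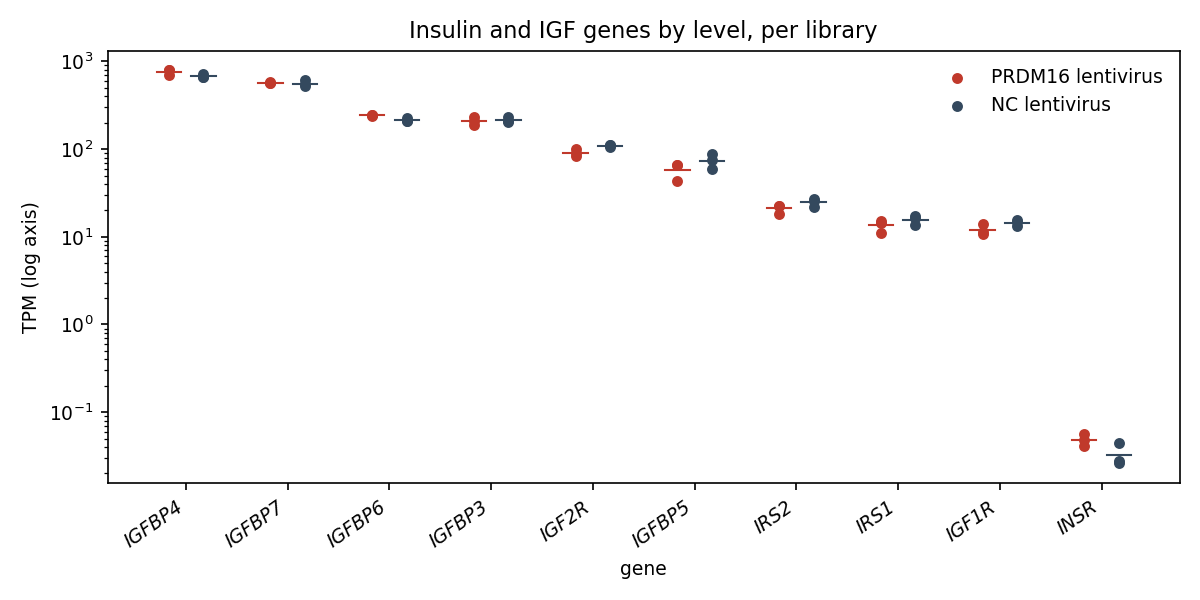
Level of each of the 10 genes in TPM on a log axis, ordered by mean; points are libraries and short lines group means, PRDM16 lentivirus left of NC lentivirus for each gene. The other 9 genes lie between 10.7 and 790 TPM, and INSR lies below all of them in each of the 6 libraries.

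INSR was close to absent from the counts. The insulin receptor gene, on chromosome 19 at 7112257 to 7294414 (hg38, minus strand), had 3, 5 and 8 counts in PRDM16 libraries 1, 2 and 3, against 2, 4 and 2 counts in NC libraries 1, 2 and 3, where 3 counts stand for 0.0727 to 0.149 CPM. Summed over each group that is 16 counts with PRDM16 and 8 with NC, a ratio of 1.58 with an exact 95% interval for counting error of 0.637 to 4.26, so no difference was detectable at this depth. In CPM the groups did not overlap, with 0.156, 0.179 and 0.191 CPM in PRDM16 libraries 1, 2 and 3, against 0.0868, 0.139 and 0.0959 CPM in NC libraries 1, 2 and 3, whereas in TPM they overlapped. INSR is listed at 1 place only and shares no exon base with another listed gene. The listed genes on its sides, looked up after the INSR counts were seen, were counted, with ARHGEF18 at 187 ± 0.918 CPM with PRDM16 and 163 ± 19.5 CPM with NC and the zinc finger gene ZNF557 at 9.83 ± 0.901 CPM with PRDM16 and 11.3 ± 0.913 CPM with NC (SD, n = 3 each). The labels do not say how reads that match several places were assigned, and the part of that in the low INSR count was not tested.

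The gap between the sister receptors was wide. The ratio of IGF1R to INSR in TPM was 263, 235 and 247 in PRDM16 libraries 1, 2 and 3, against 512, 333 and 556 in NC libraries 1, 2 and 3. The groups did not overlap, but the ratio rests on 2 to 8 INSR counts a library: its log2 inverse differed by 0.88 between PRDM16 and NC (two-sided exact permutation p = 0.1, the smallest possible; 0.2 adjusted over the 2 ratios tested). The ratio of IRS2 to IRS1 was 1.65, 1.59 and 1.49 in PRDM16 libraries 1, 2 and 3, against 1.58, 1.56 and 1.58 in NC libraries 1, 2 and 3, and the groups overlapped (log2 difference 0.0034, exact permutation p = 0.9, 0.9 adjusted). IGF2R exceeded IGF1R by a ratio of 7.85, 7.89 and 7.14 in PRDM16 libraries 1, 2 and 3, against 7.92, 7.57 and 7.22 in NC libraries 1, 2 and 3, with overlapping groups.

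No transcript of the ligands was seen. INS (insulin) and IGF1 had 0 counts in each of the 6 libraries, which allows up to 3 counts per library, and IGF2 was listed at 0 too. For IGF2 the 0 is uncertain, since 75.1% of its exon bases are shared with INS-IGF2 or IGF2-AS, which had 0 counts and 0 to 1 counts, and how reads in shared bases were treated is not given. INS shares 38.2% of its exon bases with INS-IGF2. The related receptor INSRR had 0 to 1 counts and the substrate IRS4 had 0 in each library.

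The IGFBP family was split between counted and nearly uncounted genes, also where they are neighbours. IGFBP1 and IGFBP3 lie 18584 bases apart on chromosome 7, and IGFBP1 had 2 to 11 counts per library where IGFBP3 had 3887 to 8250. IGFBP2 and IGFBP5 lie 7668 bases apart on chromosome 2, and IGFBP2 had 2 to 8 counts where IGFBP5 had 2077 to 6110. IGFALS, which holds IGFBP3 and IGFBP5 in the large complexes of blood, was at 0.181 ± 0.0534 CPM with PRDM16 and 0.164 ± 0.0170 CPM with NC (SD, n = 3 each). Summed over IGFBP3 to IGFBP7 the level was 1828, 1818 and 1871 TPM in PRDM16 libraries 1, 2 and 3, against 1811, 1678 and 1763 TPM in NC libraries 1, 2 and 3. IGFBP4 made up 41.3 ± 2.42% of that sum with PRDM16 and 39.3 ± 1.12% with NC, and IGFBP7 31.0 ± 0.917% and 31.9 ± 1.42% (SD, n = 3 each). Of the exon bases of IGFBP7, 22.2% are shared with POLR2B or IGFBP7-AS1 (698 to 1663 and 0 to 4 counts). IGF1R shares 8.48% with the antisense RNA IRAIN (0 to 9 counts), and without a stated strand setting the reads of such a pair cannot be told apart.

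The libraries set PRDM16 against NC in high glucose. None of the 9 members that passed the filter on low counts passed the edgeR test at an adjusted p under 0.05 over all 15381 genes tested, where 10 genes (0.065%) did, 9 higher and 1 lower (9 higher and 4 lower with upper-quartile factors, 3 higher and 6 lower without NC library 2, 59 higher and 114 lower without NC library 3); INSR did not pass the filter. In bulk RNA, fewer cells of a type and less RNA per cell cannot be told apart. DESeq2 and limma-voom called 0 of the members too. IGFBP4 and IGFBP6, 2 of 9, had an unadjusted p below 0.05, both higher, where 2459 of all genes tested (16.0%) had such a p, with 9.23% higher and 6.76% lower. Without PRDM16 library 1 that count was 0 of 9, without PRDM16 library 2 it was 3 of 9 and without NC library 2 it was 1 of 9. It was 0 of 9 with length and GC offsets, and 1 of 9 with these offsets and a replicate block. The share over all genes was taken in the main fit only, so these counts have no share of their own to be read against. The groups did not overlap in CPM in 3 of 9 members, against 21.0% of all genes tested (12.2% higher, as IGFBP4 and IGFBP6 were, and 8.78% lower, as IGF2R was). Each share rests on 9 genes, 2 and 3 of which were counted, and the median log2 fold change of the members was -0.086, against -0.024 over all genes tested.

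The binding proteins are given first, in CPM scaled by TMM factors, a scale on which one gene is compared between libraries. IGFBP6 had 93.5, 88.4 and 82.0 CPM in PRDM16 libraries 1, 2 and 3, against 69.5, 65.7 and 77.7 CPM in NC libraries 1, 2 and 3. Every PRDM16 library lay above every NC library. Its log2 fold change was 0.31 ± 0.11 (SE), or 1.24-fold (edgeR adjusted p = 0.297). IGFBP4 had 703, 604 and 623 CPM in PRDM16 libraries 1, 2 and 3, against 561, 487 and 541 CPM in NC libraries 1, 2 and 3. The groups did not overlap in CPM, with PRDM16 library 1 highest, but they did in TPM, where NC library 1 was above PRDM16 library 2. The log2 fold change of IGFBP4 was 0.28 ± 0.12 (SE), or 1.21-fold (edgeR adjusted p = 0.298).

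Fold changes over all genes differed by base composition. The transcripts of IGFBP6 and IGFBP4 hold 64.1% and 62.5% GC, and genes in the highest of 5 equal bins by GC content (59.0% to 74.7%) had a median log2 fold change of 0.24, against -0.21 in the lowest. With the trend over length and GC content removed by offsets the log2 fold change was -0.040 for IGFBP6 and 0.020 for IGFBP4. The offsets take length and GC content together, the exons of IGFBP6 being 947 bases long, and the part of either in these folds was not tested.

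IGFBP5, with a GC content of 63.2% and exons of 6239 bases, had a negative log2 fold change. It had 108, 161 and 146 CPM in PRDM16 libraries 1, 2 and 3, against 129, 154 and 198 CPM in NC libraries 1, 2 and 3. The groups overlapped and NC library 3 stood highest. Its log2 fold change was -0.21 ± 0.18 (SE) (edgeR adjusted p = 0.52), -0.38 with length and GC offsets and -0.026 without NC library 3. IGFBP7 had 362, 362 and 322 CPM in PRDM16 libraries 1, 2 and 3, against 339, 275 and 319.5 CPM in NC libraries 1, 2 and 3. PRDM16 library 3 lay below NC library 1, and NC library 2 was lowest (log2 fold change 0.17 ± 0.12 (SE), edgeR adjusted p = 0.435), and the value was 0.084 with length and GC offsets and 0.090 without NC library 2. IGFBP3 had 202, 237 and 197 CPM in PRDM16 libraries 1, 2 and 3, against 191, 178 and 224 CPM in NC libraries 1, 2 and 3. The groups overlapped throughout (log2 fold change 0.10 ± 0.12 (SE), edgeR adjusted p = 0.639), and the value was 0.019 with length and GC offsets and 0.039 without NC library 2. With 1 library left out the value for IGFBP3 ran from 0.017, without PRDM16 library 2, to 0.21.

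Among the receptors IGF2R had 478, 494 and 501 CPM in PRDM16 libraries 1, 2 and 3, against 522, 519 and 571 CPM in NC libraries 1, 2 and 3. Every PRDM16 library lay below every NC library, in CPM and in TPM. The log2 fold change was -0.13 ± 0.12 (SE), or 0.914-fold (edgeR adjusted p = 0.525), and -0.0025 with length and GC offsets. With 1 library left out it ran from -0.16 to -0.080. IGF1R had 58.1, 59.7 and 66.8 CPM in PRDM16 libraries 1, 2 and 3, against 62.9, 65.3 and 75.4 CPM in NC libraries 1, 2 and 3. The groups overlapped, PRDM16 library 3 lying above NC libraries 1 and 2 (log2 fold change -0.14 ± 0.12 (SE), edgeR adjusted p = 0.495), and the value was -0.048 with length and GC offsets. For IGF1R it ran from -0.21 to -0.054 with 1 library left out, the last without NC library 3.

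The docking proteins hardly separated. IRS1, the substrate first found in insulin-treated cells, had 43.9, 54.1 and 53.1 CPM in PRDM16 libraries 1, 2 and 3, against 47.1, 55.4 and 58.2 CPM in NC libraries 1, 2 and 3. Its groups overlapped (log2 fold change -0.086 ± 0.12 (SE), edgeR adjusted p = 0.704), and the sign turned with length and GC offsets (0.024). Without NC library 2 the value was -0.054, and with 1 library left out it ran from -0.18 to 0.0031. IRS2 had 60.5, 72.0 and 66.2 CPM in PRDM16 libraries 1, 2 and 3, against 62.2, 72.2 and 76.5 CPM in NC libraries 1, 2 and 3. Its groups overlapped as well (log2 fold change -0.086 ± 0.12 (SE), edgeR adjusted p = 0.69), and the value was -0.15 with length and GC offsets. With 1 library left out the value for IRS2 ran from -0.17 to -0.017, the last without NC library 3. IGF1R, IRS1, IRS2 and IGFBP5 each had their lowest CPM within a group in library 1, in PRDM16 and in NC. The other tested members did not: IGFBP4 was lowest in library 2 of both groups. IGFBP3, IGFBP6 and IGFBP7 were lowest in PRDM16 library 3 and NC library 2, and IGF2R in PRDM16 library 1 and NC library 2.

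**Figure D2:**
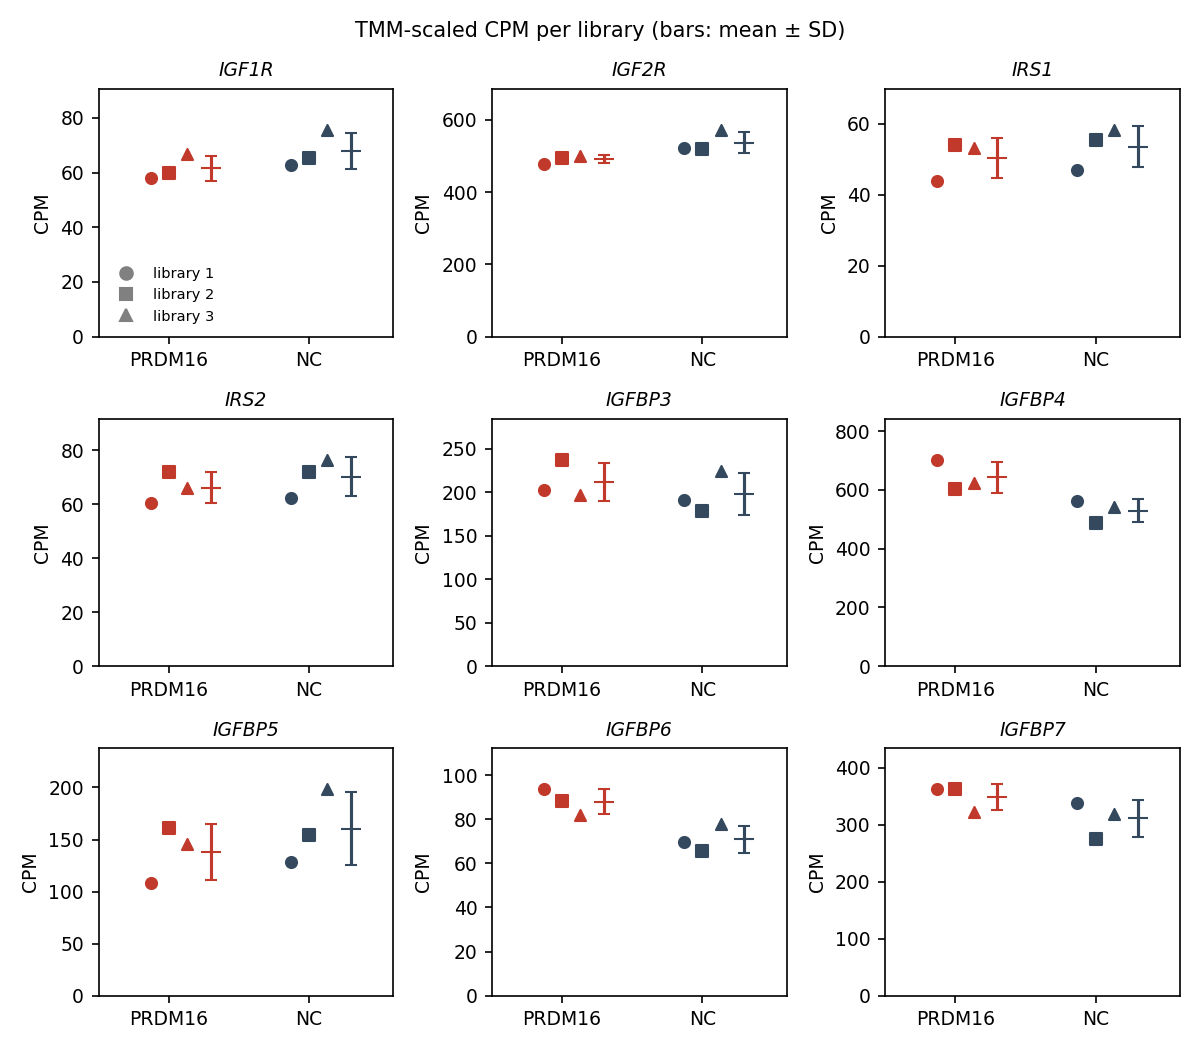
TMM-scaled CPM of the 9 tested genes in each library, PRDM16 left and NC right, with marker shape for the library number and bars for the mean ± SD (n = 3). IGFBP4 and IGFBP6 lie higher and IGF2R lower in every PRDM16 library than in any NC library; the other 6 genes overlap.

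**Figure D3:**
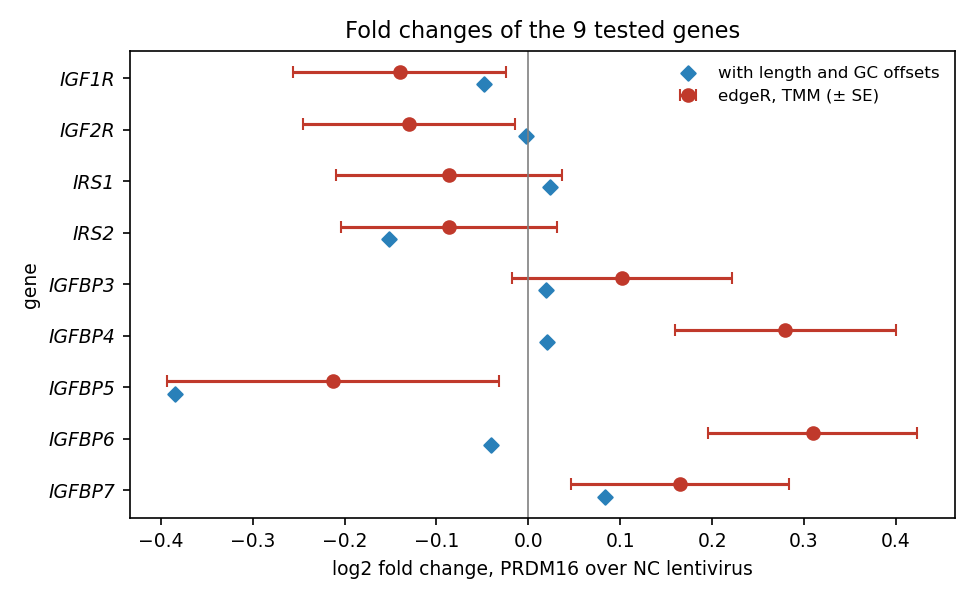
Log2 fold change, PRDM16 over NC, of the 9 tested genes: circles with SE from edgeR with TMM factors, diamonds with the trend over gene length and GC content removed. IGFBP6 and IGFBP4 lie at 0.31 and 0.28 as tested and at -0.040 and 0.020 with the offsets, while IGFBP5 lies at -0.21 and -0.38.

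Genes that act around the members were read from lists of the pathway, 105 further genes of which 88 could be tested. Of these, 0 passed in edgeR, 14 had an unadjusted p under 0.05 (6 higher, 8 lower), and the smallest adjusted p was 0.252. No member of any list is therefore called changed, and the genes named are those with the smallest p. The 14 of 88 lie at the share over all genes tested, 16.0% (9.23% higher, 6.76% lower), and the counts of the single lists are to be read against the same shares. Levels are given as mean ± SD over 3 libraries in each group. Beside a log2 fold change stands its value with length and GC offsets, or without NC library 2, where that moved it by over 1.5 times or turned its sign.

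Of the IGFBP proteases and their inhibitors, 6 of 8 could be tested and 0 had an unadjusted p under 0.05 (median log2 fold change -0.055). ADAM12, a membrane protease that can cleave IGFBP3 and IGFBP5, was at 72.2 ± 5.22 CPM with PRDM16 and 79.7 ± 9.10 CPM with NC (log2 fold change -0.14 ± 0.12 (SE), -0.076 with offsets). HTRA1, a secreted serine protease that cleaves IGFBP5, was at 0.901 ± 0.278 CPM with PRDM16 and 0.721 ± 0.0562 CPM with NC (log2 fold change 0.27 ± 0.31 (SE)), and STC1, a stanniocalcin like STC2, at 0.531 ± 0.296 CPM with PRDM16 and 0.750 ± 0.312 CPM with NC (log2 fold change -0.46 ± 0.39 (SE), -0.023 without NC library 2). The pair that governs IGFBP4 was chosen by role after its values were seen: PAPPA, the protease that cleaves IGFBP4, was at 11.9 ± 2.47 CPM with PRDM16 and 11.4 ± 1.05 CPM with NC (log2 fold change 0.065 ± 0.15 (SE), 0.23 with offsets, 0.15 without NC library 2), and STC2, which blocks PAPPA, at 761 ± 35.8 CPM with PRDM16 and 782 ± 116 CPM with NC (log2 fold change -0.039 ± 0.13 (SE), -0.10 with offsets, -0.11 without NC library 2). The 3 IGF2 mRNA-binding proteins had negative fold changes, as had 8170 of all 15381 genes tested, and 0 of the 3 had an unadjusted p under 0.05. IGF2BP2 was at 97.4 ± 8.62 CPM with PRDM16 and 111 ± 6.09 CPM with NC (log2 fold change -0.18 ± 0.11 (SE), -0.074 with offsets). IGF2BP3 was at 26.5 ± 2.07 CPM with PRDM16 and 30.0 ± 5.94 CPM with NC (log2 fold change -0.18 ± 0.14 (SE), -0.014 with offsets, 0.0044 without NC library 2). IGF2BP1 was at 76.0 ± 5.74 CPM with PRDM16 and 81.1 ± 1.64 CPM with NC (log2 fold change -0.093 ± 0.11 (SE)). IGFBPL1, the only tested gene among the other family members, was at 2.20 ± 0.638 CPM with PRDM16 and 1.95 ± 0.213 CPM with NC (log2 fold change 0.20 ± 0.24 (SE), 0.00093 with offsets, 0.13 without NC library 2).

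Among 15 adaptors at the receptor, all tested, 1 had an unadjusted p under 0.05 on the higher side, against 9.23% of all genes tested, and 3 on the lower, against 6.76% (median log2 fold change -0.062). SH2B2, an adaptor of the insulin receptor, was at 8.61 ± 1.09 CPM with PRDM16 and 6.54 ± 0.742 CPM with NC (log2 fold change 0.39 ± 0.16 (SE), 0.053 with offsets). The Ras exchange factors SOS2 and SOS1 were at 27.4 ± 2.77 CPM with PRDM16 and 34.5 ± 6.61 CPM with NC (log2 fold change -0.33 ± 0.14 (SE), -0.13 with offsets, -0.16 without NC library 2) and at 16.6 ± 1.43 CPM with PRDM16 and 20.8 ± 4.39 CPM with NC (log2 fold change -0.33 ± 0.14 (SE), -0.052 with offsets, -0.13 without NC library 2).

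In the PI3K, AKT and mTOR relay, 21 of 21 genes were tested (median log2 fold change -0.072). Of these, 4 had an unadjusted p under 0.05, all higher, against 9.23% of all genes tested. The groups did not overlap in 8, 6 higher and 2 lower, against 21.0% of all genes tested (12.2% higher, 8.78% lower). Over all 88 further genes tested, the relay among them, the groups did not overlap in 20, 11 higher and 9 lower. EIF4EBP1, the translation repressor that mTORC1 phosphorylates, was at 247 ± 25.0 CPM with PRDM16 and 187 ± 24.4 CPM with NC (log2 fold change 0.40 ± 0.12 (SE), 0.089 with offsets). MLST8, a subunit of both mTOR complexes, was at 75.3 ± 10.6 CPM with PRDM16 and 58.1 ± 7.53 CPM with NC (log2 fold change 0.37 ± 0.13 (SE), 0.17 with offsets), and PIK3R2, a regulatory subunit of PI3-kinase, at 129 ± 8.21 CPM with PRDM16 and 107 ± 10.8 CPM with NC (log2 fold change 0.28 ± 0.11 (SE), 0.049 with offsets).

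Of the brakes on insulin signalling, 14 of 16 genes could be tested, and 1 had an unadjusted p under 0.05 (median log2 fold change 0.037). This was INPP5K, a phosphatase of the lipid that PI3-kinase makes, at 123 ± 15.6 CPM with PRDM16 and 101 ± 12.8 CPM with NC (log2 fold change 0.29 ± 0.12 (SE), 0.17 with offsets). The AKT phosphatase PHLPP2 was at 17.5 ± 1.42 CPM with PRDM16 and 20.5 ± 1.33 CPM with NC (log2 fold change -0.23 ± 0.13 (SE), -0.052 with offsets) and the lipid phosphatase INPPL1, also called SHIP2, at 441 ± 22.3 CPM with PRDM16 and 380.4 ± 38.2 CPM with NC (log2 fold change 0.21 ± 0.12 (SE), 0.092 with offsets). Of the glucose uptake and glycogen effectors, 11 of 12 could be tested and 2 had an unadjusted p under 0.05, both lower (median log2 fold change -0.048). GSK3B, the kinase that restrains glycogen synthase, was at 88.6 ± 2.40 CPM with PRDM16 and 107 ± 12.8 CPM with NC (log2 fold change -0.27 ± 0.11 (SE), -0.067 with offsets, -0.18 without NC library 2), and TBC1D4, the AKT substrate that holds glucose transporters inside the cell, at 28.5 ± 3.60 CPM with PRDM16 and 35.6 ± 6.48 CPM with NC (log2 fold change -0.32 ± 0.14 (SE), -0.14 with offsets, -0.15 without NC library 2). The glucose transporter SLC2A1 was at 426 ± 18.8 CPM with PRDM16 and 366 ± 28.4 CPM with NC (log2 fold change 0.22 ± 0.12 (SE), 0.12 with offsets).

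Of the FOXO factors and their targets, 9 of 14 could be tested, and 1 had an unadjusted p under 0.05 (median log2 fold change -0.039). This was FOXO3, a factor that AKT keeps out of the nucleus, at 52.8 ± 0.929 CPM with PRDM16 and 63.5 ± 8.08 CPM with NC (log2 fold change -0.27 ± 0.12 (SE), -0.11 with offsets, -0.17 without NC library 2). Its target CCNG2, a cyclin of resting cells, was at 10.4 ± 1.23 CPM with PRDM16 and 12.1 ± 1.34 CPM with NC (log2 fold change -0.21 ± 0.14 (SE), -0.050 with offsets, -0.11 without NC library 2). Among 11 genes of receptor trafficking, all tested, 2 had an unadjusted p under 0.05, both lower (median log2 fold change 0.0062). The ubiquitin ligases MDM2 and NEDD4 were at 446 ± 39.7 CPM with PRDM16 and 556 ± 105 CPM with NC (log2 fold change -0.32 ± 0.13 (SE), -0.064 with offsets, -0.16 without NC library 2) and at 33.0 ± 3.66 CPM with PRDM16 and 41.2 ± 8.89 CPM with NC (log2 fold change -0.32 ± 0.14 (SE), -0.057 with offsets, -0.12 without NC library 2). RACK1, a scaffold that binds IGF1R, was at 2288 ± 276 CPM with PRDM16 and 1942 ± 146 CPM with NC (log2 fold change 0.24 ± 0.13 (SE), 0.077 with offsets).

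**Figure D4:**
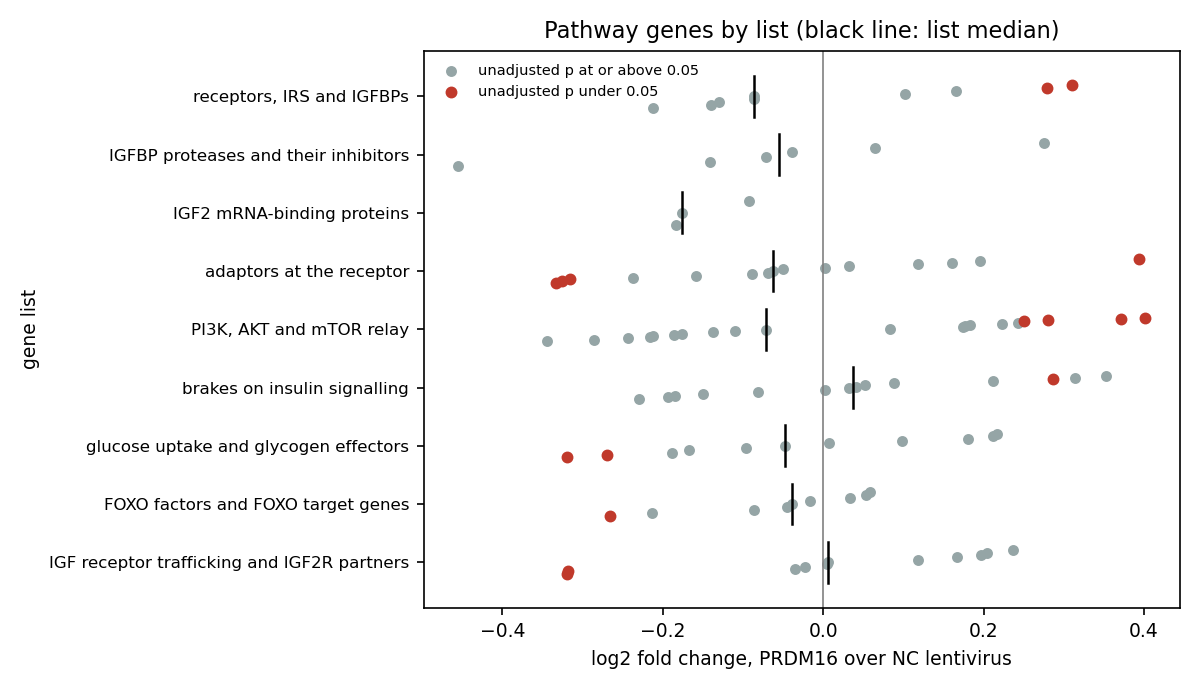
Log2 fold change, PRDM16 over NC, of the tested genes of each list with 3 or more such genes; each point is a gene, offset vertically only to part it from its neighbours, red where the unadjusted p is under 0.05, and black lines are list medians. List medians lie between -0.18 and 0.037 over all tested genes of each list; 1 tested gene of the relay is not drawn.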

How the data were processed

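RNA-seq of 6 libraries of the podocyte line HPC was analysed, 3 with PRDM16 and 3 with NC lentivirus, grouped by the labels. The authors deposited 1 table per library with raw counts per gene, TPM, FPKM and a gene length, per the file headers. The submitters' processing notes name hg38; the aligner, counter, strand setting and treatment of shared or multiply matching reads: not given in the sources used here. Records broken over lines were rejoined, and each total was checked against the total implied by the deposited FPKM values.

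Counts were tested with edgeR 4.0.16 (R 4.3.3): TMM factors, filterByExpr (minimum count 10, minimum total 15), robust quasi-likelihood fit and Benjamini-Hochberg adjustment at 0.05 over 15381 genes, after a test on simulated data. Levels of different genes used deposited TPM. DESeq2 1.42.0, limma-voom (limma 3.58.1), other scaling factors, no count filter, each library left out, a replicate block, splines (5 df) for length and GC content, and summed listings were alternatives; GC content was found for 90.3% of the genes tested. Genes listed at several places were tested one listing at a time; each member has 1 listing. Intervals and floors cover counting error only.

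Named genes were the members, PRDM16, the listed ligands and, in each list, genes that passed or else up to 3 with the smallest p. ARHGEF18, ZNF557, PAPPA and STC2 were added after values were seen. The members and lists were chosen with earlier results of these data known. INSR, below the count filter, was left out of the main test. Some items are not reported here.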

Additional observations from a re-analysis of the deposited data

How the results depend on the processing

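No member passed at an adjusted p of 0.05 in edgeR, in DESeq2, in limma-voom or under any other alternative run; the smallest member adjusted p was 0.139, without NC library 1, and 2 of 9 members had an unadjusted p under 0.05 in the main analysis. Over all genes, 10 passed as tested, 46 in DESeq2, 107 without the count filter, 7 to 173 with 1 library left out, 5 with length and GC offsets and 18 with listings summed. The replicate numbers were not taken to pair cultures: the correlations of same-numbered libraries were 0.0945, -0.104 and -0.131, and 2 of 6 libraries correlated best with their own number. With the replicate block 10 genes passed, 5 of them shared, and with the block and the offsets 4 passed. PRDM16 passed except with the block and the offsets (log2 fold change 6.98, adjusted p = 0.218, against 7.02 as tested; with NC at 0 both depend on the prior count). The INSR to IGF1R log2 difference ran between 0.734 and 1.10 and that of IRS2 to IRS1 between -0.03 and 0.0435 with 1 library left out.

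The sign of the log2 fold change reversed for IRS1 (-0.18 to 0.0031 with 1 library left out, the last without PRDM16 library 1, 0.024 with the offsets, 0.020 with block and offsets), IGFBP6 (-0.040 with the offsets, -0.036 with block and offsets), IGFBPL1 (-0.087 to 0.34 with 1 library left out, the first without PRDM16 library 3, -0.050 with block and offsets), PAPPA (-0.12 to 0.18, the first without PRDM16 library 3), STC2 (-0.11 to 0.081, the last without NC library 1) and IGF2BP3 (-0.29 to 0.0044, the last without NC library 2). The cause was not tested. Depth limits INSR, at 2 to 8 counts per library, and the ligands.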
